A study of Mus musculus with 6 samples.

Results

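The genes described here are 9 genes that medium spiny neurons, the projection neurons of the striatum, use for dopamine signalling: Drd1, Drd2, Adora2a, Adcy5, Gng7, Ppp1r1b, Pde10a, Rgs9 and Six3. All 9 were found among the 52550 genes that the hippocampal libraries list, and all 9 passed the filter on low counts, with 18795 genes in all. They were chosen from textbook markers of this neuron, but with earlier results of the same libraries known, in which 1 library of the injured group, TBI1, stood far above the rest. Their levels are therefore a description, and no test is attached to them. The study compared male C57BL / 6 mice 24 h after a controlled cortical impact (TBI, n = 3) with mice that had the same anesthesia and craniotomy but no impact (sham, n = 3). The impact was made through the right parietal bone, and the whole hippocampus was taken, with the side opposite the impact exposed as well. Each library, Sham1 to Sham3 and TBI1 to TBI3, came from 1 mouse. The genes are compared here between the groups, between the single libraries, and with markers of other brain regions.

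Medium spiny neurons form the bulk of the striatum and come in a direct and an indirect pathway class. The direct class carries the dopamine D1 receptor (Drd1), which raises cyclic AMP through the G protein Golf and adenylyl cyclase 5 (Adcy5). The indirect class carries the D2 receptor (Drd2), which lowers cyclic AMP, and an adenosine receptor (Adora2a), which raises it. Cyclic AMP activates protein kinase A, whose substrate DARPP-32 (Ppp1r1b) then inhibits protein phosphatase 1. The hippocampus holds some of the same signalling proteins in its own neurons, but medium spiny neurons are not among its cell types.

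All 9 are protein-coding genes, and their positions are given on GRCm38 from GENCODE vM21. Drd1 lies at chr13:54051183-54055705 (minus strand), Drd2 at chr9:49340627-49408177 (plus) and Adora2a at chr10:75316877-75334784 (plus). The signalling genes are spread over the genome, with Adcy5 at chr16:35154877-35305738 (plus), Gng7 at chr10:80948624-81014945 (minus), Ppp1r1b at chr11:98348404-98357796 (plus), Pde10a at chr17:8525372-8986648 (plus) and Rgs9 at chr11:109225355-109298129 (minus). Six3 lies at chr17:85613608-85629302 (plus).

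Promoter windows of 300 bases around a transcription start were taken from RefSeq (GRCm38.p6), whose table held 10 windows for 7 of the 9 genes; Adora2a and Ppp1r1b had none. Those of Drd1 and Drd2 are shown because these receptors divide the direct from the indirect class, and that of Six3 because it was the single gene of the 9 whose sham and TBI libraries did not overlap. They lie at chr13:54055609-54055908 (minus strand), chr9:49340153-49340452 (plus strand) and chr17:85620584-85620883 (plus strand), and the RefSeq window of Drd2 ends before the start that GENCODE gives the gene. A further window of Drd1, at chr13:54054731-54055030 (minus strand), is not shown. Capitals mark each match, on either strand, to GGGCGG (a GC box), and the Six3 window held none.
Drd1: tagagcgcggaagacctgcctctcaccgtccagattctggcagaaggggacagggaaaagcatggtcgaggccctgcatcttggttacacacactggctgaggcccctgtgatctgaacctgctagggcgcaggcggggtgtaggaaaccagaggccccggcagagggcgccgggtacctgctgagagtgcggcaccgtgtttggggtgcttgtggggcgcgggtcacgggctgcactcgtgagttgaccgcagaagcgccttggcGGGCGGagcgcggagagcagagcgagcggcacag
Drd2: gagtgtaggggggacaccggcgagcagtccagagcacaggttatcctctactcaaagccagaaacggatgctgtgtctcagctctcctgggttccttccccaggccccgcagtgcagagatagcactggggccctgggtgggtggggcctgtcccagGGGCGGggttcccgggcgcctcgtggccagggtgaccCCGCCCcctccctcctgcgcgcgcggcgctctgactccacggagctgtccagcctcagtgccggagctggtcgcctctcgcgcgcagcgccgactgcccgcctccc
Six3: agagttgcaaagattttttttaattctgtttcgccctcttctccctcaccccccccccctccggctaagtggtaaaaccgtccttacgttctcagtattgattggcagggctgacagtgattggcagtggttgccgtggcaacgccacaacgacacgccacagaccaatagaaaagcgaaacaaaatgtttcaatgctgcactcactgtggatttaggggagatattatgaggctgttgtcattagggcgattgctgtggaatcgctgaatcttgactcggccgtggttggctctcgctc
The GC box was present in 8 of the 10 windows (those of Adcy5, Drd1, Drd2, Pde10a and Rgs9 and 1 of Gng7) and in 35.7% of all 32851 windows of this length. The core letters of the cyclic AMP response element, TGACG, was present in 1 of the 10 windows, that of Gng7 at chr10:81001316-81001615, against 20.8% of all windows, and TATAAA in 1, that of Rgs9, against 13.6%. These matches describe the letters of the windows only.

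The counts summed to between 31630936 and 41771872 per library. Levels are given as CPM, on library sizes scaled by TMM factors of 0.970 to 1.02. Of the 6 libraries, 3 stood apart in lists of regional or state markers. TBI1 was high in striatal and low in dentate gyrus genes, TBI3 was high in cerebellar genes, and Sham2 was high in genes of reactive astrocytes. The group comparisons of the 9 genes, of the other medium spiny neuron genes and of the pathway lists are therefore also given without TBI1. In bulk tissue, fewer cells of a type and less RNA per cell cannot be told apart.

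The receptors were at low levels in every library but TBI1. Drd1 had 3.11, 12.1 and 5.34 CPM in Sham1 to Sham3, and 156, 5.34 and 1.97 CPM in TBI1 to TBI3. Apart from TBI1, the groups overlapped and Sham2 was the highest library. Drd2 had 2.30, 3.91 and 4.27 CPM in sham and 185, 4.08 and 5.23 CPM in TBI, so that TBI1 was 45.4 times the median of the other 5 libraries. Adora2a, whose product is a Gs-coupled receptor paired with D2 on the same neurons, had 4.25, 2.04 and 2.14 CPM in sham and 296, 2.65 and 2.98 CPM in TBI. TBI1 was 112 times the median of the other 5 for Adora2a, the largest ratio among the 9 genes, against 29.2 times for Drd1. In counts, Adora2a had 12103 in TBI1 and 82 to 172 elsewhere.

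Downstream of the receptors, Adcy5 and Gng7 were well expressed in every library and had smaller ratios. Adcy5, the main adenylyl cyclase of the striatum, had 196, 227 and 213 CPM in sham and 1366, 204 and 165 CPM in TBI. TBI1 was 6.68 times the median of the other 5. Gng7, a gamma subunit that assembles with Golf, had 252, 123 and 183 CPM in sham and 766, 143 and 102 CPM in TBI, a ratio of 5.36, the smallest among the 9. Outside TBI1 its levels ran over a 2.48-fold range, those of Adcy5 over a 1.38-fold range, the narrowest of the 9.

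Ppp1r1b was the most abundant of the 9 genes in TBI1. It had 111, 81.0 and 98.6 CPM in sham and 1788, 96.6 and 149 CPM in TBI. TBI1 was 18.1 times the median of the other 5 libraries, and TBI3 was the highest of these. Of the 2928 exonic bases of Ppp1r1b, 460 (15.7%) are also exonic in 1700003D09Rik on the opposite strand. The strandedness of the libraries is not given in the sources used here, and reads on those bases cannot be assigned to 1 of the pair. 1700003D09Rik had 26, 20 and 5 counts in sham and 486, 8 and 43 in TBI, so its counts were far below the 73006 of Ppp1r1b in TBI1. Pde10a, the phosphodiesterase that degrades cyclic AMP and cyclic GMP in these neurons, had 64.2, 54.7 and 61.8 CPM in sham and 391, 38.2 and 73.3 CPM in TBI, with a ratio of 6.32. Rgs9, which speeds up the shut-off of G proteins at dopamine and opioid receptors, had 7.19, 19.9 and 9.90 CPM in sham and 338, 10.5 and 7.53 CPM in TBI, with a ratio of 34.1. For Rgs9, as for Drd1, Sham2 was the highest library after TBI1.

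Six3, a homeobox transcription factor needed for the development of indirect pathway neurons, had the lowest level per length in TBI1 and in the median of the others, and was the single gene of the 9 with every TBI library above every sham library. It had 1.63, 0.947 and 4.43 CPM in sham and 45.3, 6.38 and 9.33 CPM in TBI. The 3 TBI libraries lay above the 3 sham libraries, as they did for 4.77% of all genes tested. TBI1 was the highest library in all 9 genes, against 19.7% of all genes, so that share is no like baseline. TBI2 and TBI3 alone had a mean of 7.86 CPM, 3.36 times the sham mean of 2.33 CPM. The SD within sham was 1.84 CPM. Sham3 and TBI2, at 4.43 and 6.38 CPM, were the nearest libraries of the opposite groups. Six3 shares 106 exonic bases (1.95%) with Six3os1 and 168 (3.08%) with Gm28528, both on the opposite strand. Six3os1 had 59, 5 and 70 counts in sham and 564, 89 and 103 in TBI, and these groups did not overlap either.

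**Figure D1:**
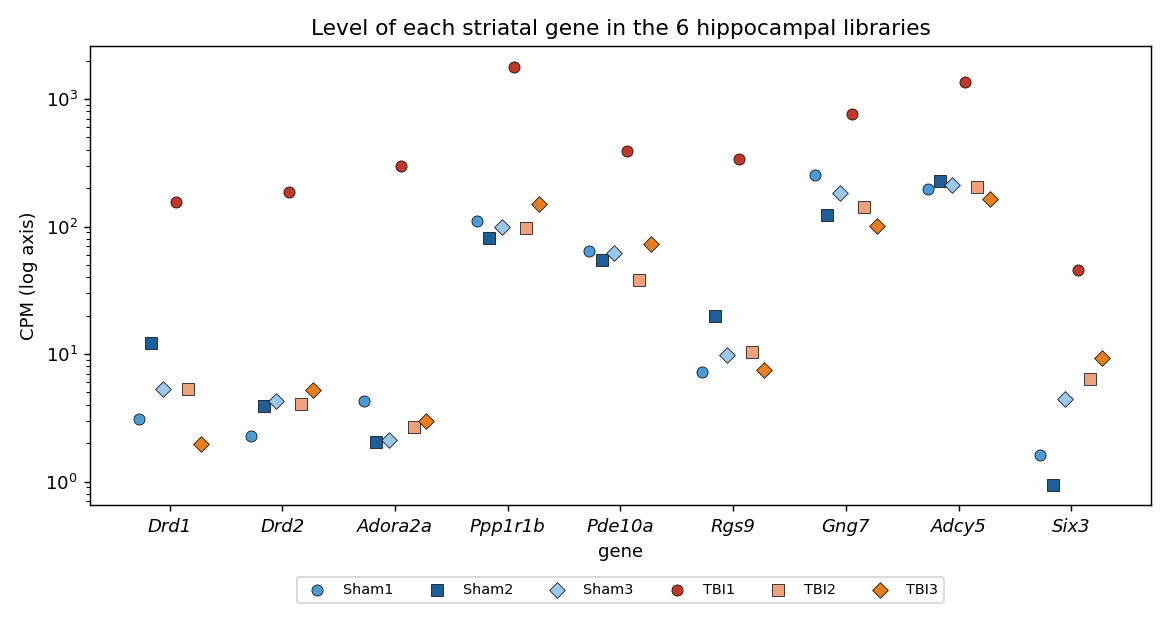
Level of the 9 striatal genes in CPM (log axis), 1 point per library, with sham libraries in blue and TBI libraries in red and orange. TBI1 was the highest library for all 9 genes, from 3.04 times the next highest library for Gng7 to 69.8 times for Adora2a.

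As a group contrast, all 9 genes had higher means in TBI, and in all 9 the SD of the TBI group exceeded its mean. Drd1 averaged 6.86 ± 4.70 CPM over the sham and 54.4 ± 88.0 CPM over the TBI libraries (SD, n = 3). The means were 2.81 ± 1.25 and 101 ± 170 CPM for Adora2a, and 96.8 ± 15.0 and 678 ± 962 CPM for Ppp1r1b, sham first. TBI1 alone held between 74.3% (Six3) and 98.1% (Adora2a) of the summed TBI level. The fitted log2 fold change of TBI against sham ran from 0.86 for Gng7 to 5.16 for Adora2a, with a median of 2.99, against 0.0091 over all genes tested. Without TBI1 the median over the 9 genes was -0.11, with 4 genes higher and 5 lower in TBI. The log2 fold change without TBI1 was -0.91 for Drd1, -0.61 for Gng7, -0.46 for Rgs9, -0.20 for Adcy5 and -0.11 for Pde10a. It was 0.0035 for Adora2a, 0.34 for Ppp1r1b, 0.41 for Drd2 and 1.75 for Six3. In the other 8 genes the TBI2 and TBI3 libraries did not lie jointly above or jointly below the sham libraries.

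Among the 5 libraries other than TBI1, the 9 genes did not share 1 order, and each placed these libraries in an order of its own. Some orders were close: from low to high, Drd1 ran TBI3, Sham1, Sham3, TBI2 and Sham2, from which Rgs9 and Adcy5 each differed by an exchange of neighbours. TBI3 was the highest of the 5 for 4 genes (Drd2, Ppp1r1b, Pde10a and Six3) and the lowest for 3 (Drd1, Gng7 and Adcy5). Sham2 was the highest for Drd1, Rgs9 and Adcy5 and the lowest for Adora2a, Ppp1r1b and Six3. The widest ranges were those of Six3, 9.85-fold, and Drd1, 6.17-fold. Averaged over the 9 genes, the log2 level relative to the sham mean was -0.11, -0.0087 and 0.11 in Sham1 to Sham3, 0.081 in TBI2 and 0.074 in TBI3, against 4.27 in TBI1.

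**Figure D2:**
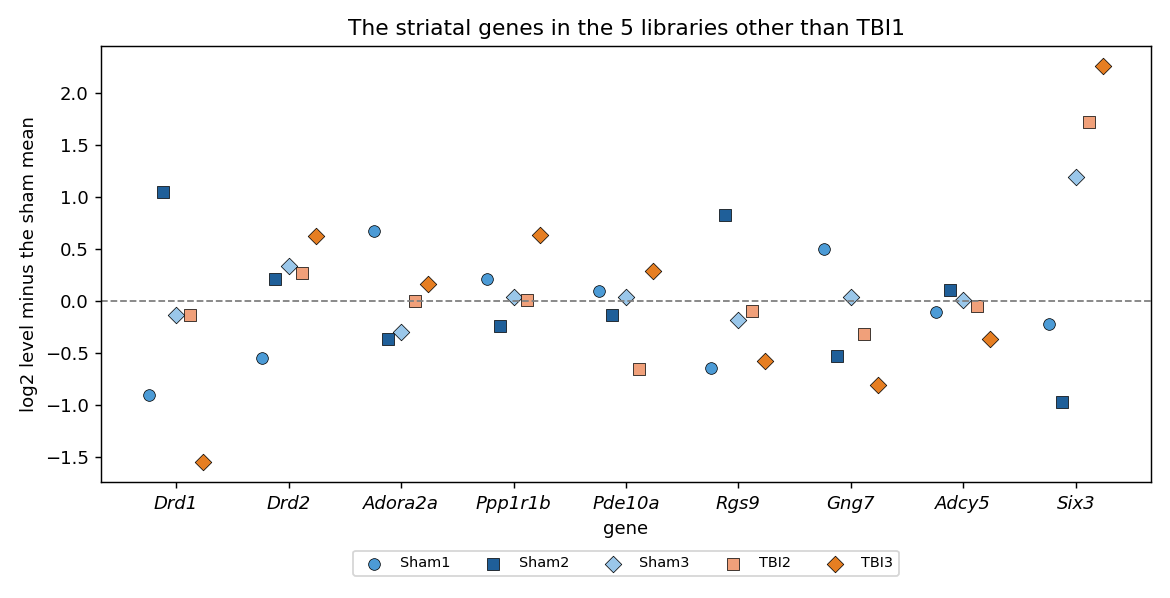
Log2 level of each of the 9 genes minus the mean of the 3 sham libraries (dashed line), in the 5 libraries other than TBI1, 1 point per library. Most points lie within 1 log2 unit of the sham mean, Six3 was above it in Sham3, TBI2 and TBI3, and Drd1 ran from -1.55 in TBI3 to 1.04 in Sham2.

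Six3 and Drd2 were set beside the thalamic list in these libraries, a choice made after their values were seen. From low to high, Six3 ran Sham2, Sham1, Sham3, TBI2 and TBI3. The thalamic genes, relative to sham, had mean log2 levels of -1.54 in Sham2, 0.028 in Sham1, 1.32 in TBI2, 1.51 in Sham3 and 1.83 in TBI3. Six3 and the list had Sham2 and Sham1 lowest and TBI3 highest. The order of Drd2, which ran Sham1, Sham2, TBI2, Sham3 and TBI3, was as close. Tcf7l2, a transcription factor of thalamic neurons, had 15.1, 4.14 and 55.2 CPM in sham and 6.64, 49.9 and 73.0 CPM in TBI. In TBI1 the thalamic list was at -1.07 while Six3 and Drd2 were at their highest, so the resemblance did not extend to that library. The part of thalamic RNA in these levels was not tested.

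Levels were also compared between genes as CPM per kb of annotated exon. Taking the median of the 5 libraries other than TBI1, Gng7 (37.7 CPM per kb), Ppp1r1b (33.7) and Adcy5 (28.5) led, followed by Pde10a at 4.81, whose lowest library overlapped the highest of Drd1 and Rgs9. The ranges of Gng7, Ppp1r1b and Adcy5 over libraries overlapped. Drd2 (1.60), Rgs9 (1.55), Drd1 (1.47), Adora2a (0.867) and Six3 (0.813) formed a low group with overlapping ranges. In TBI1 the order was different, with Ppp1r1b at 611 CPM per kb, Gng7 at 202, Adcy5 at 190, Adora2a at 96.8, Drd2 at 72.7, Rgs9 at 52.9, Drd1 at 43.0, Pde10a at 30.4 and Six3 at 8.33. As a difference between TBI1 and the median of the others, Ppp1r1b gained most, 577 CPM per kb, and Six3 least, 7.51. The ratio of Drd2 to Drd1 per kb was 1.05, 0.459 and 1.14 in sham and 1.69, 1.09 and 3.78 in TBI, so TBI1 lay within the range of the other libraries. The ratio of Adora2a to Drd2 was 1.33 in TBI1 and between 0.416 and 1.54 elsewhere, and that of Ppp1r1b to Gng7 was 3.02 in TBI1 and between 0.569 and 1.89 elsewhere.

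Other genes of medium spiny neurons were high in TBI1 as well. Of 36 such genes listed, 35 were in the files and all 35 passed the filter. They were listed with the pattern of TBI1 known, so their shares are a description and no independent evidence. In 28 of the 35 (80%) TBI1 was at least 2 times the highest of the other 5 libraries, against 1.63% of all genes tested, and in 33 it was the highest library. No gene of the list was at most 0.5 times the lowest of the other libraries in TBI1, against 2.69% of all genes. Together they summed to 10230 CPM in TBI1 and to between 1247 and 1400 CPM in the other libraries. Neuropeptides of both classes were among them. Tac1, the substance P precursor of direct pathway neurons, had 10.7, 12.5 and 16.7 CPM in sham and 201, 11.3 and 15.2 CPM in TBI. Penk, the enkephalin precursor of indirect pathway neurons, had 18.4, 53.1 and 22.7 CPM in sham and 1029, 24.8 and 40.8 CPM in TBI. Pdyn, the dynorphin precursor, was at 153 CPM in TBI1, 18.4 times the median of the others.

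Receptor, channel, signalling and transcription factor genes of these neurons were among them too. Gpr6, an orphan receptor of indirect pathway neurons, was at 71.6 CPM in TBI1, 63.7 times the median of the others. Scn4b, a sodium channel subunit, was at 1486 CPM in TBI1, 24.1 times the median. Gnal, the alpha subunit of Golf, had 157, 119 and 191 CPM in sham and 705, 186 and 216 CPM in TBI, and Pde1b, a calcium-dependent phosphodiesterase, was 8.26 times the median in TBI1. Of the transcription factors, Isl1, of direct pathway and cholinergic neurons, had 5, 5 and 29 counts in sham and 405, 8 and 23 in TBI. Rarb, a retinoic acid receptor, was 11.4 times and Meis2 6.11 times the median of the others in TBI1. Bcl11b, which the hippocampus also expresses, was 2.77 times. The 7 genes in which TBI1 was under 2 times the highest other library were Bcl11b, Foxp1, Foxp2, Kcnip2, Ttc12, Ebf1 and Eya1. Ebf1 was highest in TBI3, at 19.7 CPM, and Eya1 was at 0.690 times the median in TBI1.

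**Figure D3:**
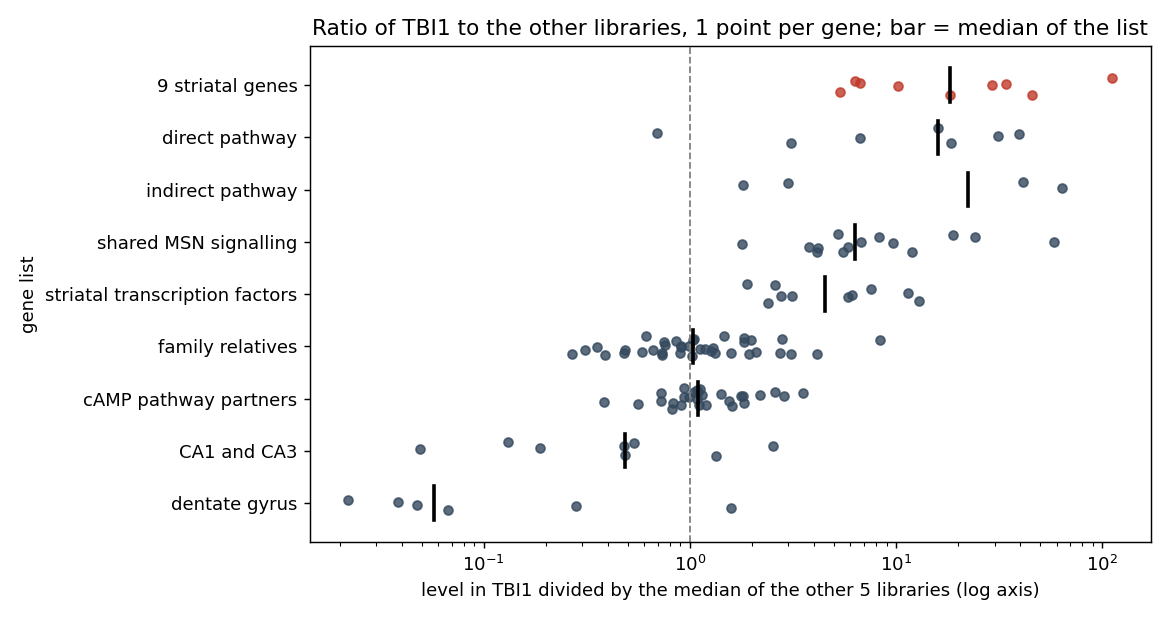
Level in TBI1 divided by the median of the other 5 libraries (log axis), 1 point per gene and 1 row per list, with the median of each list as a black bar and a ratio of 1 as a dashed line. The median ratio was 18.1 for the 9 genes and 6.11 for the 35 other medium spiny neuron genes, 1.03 and 1.10 for family relatives and cyclic AMP pathway partners, and 0.0575 for the dentate gyrus list.

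Of these 35 genes, edgeR's quasi-likelihood test with Benjamini-Hochberg adjustment called 0, as it called 0 (0%) of all 18795 genes at the thresholds of the study (p under 0.05, adjusted p under 0.1 and a change of over 1.5-fold). The lowest adjusted p among them was 0.982. Without adjustment, 12 genes had a p under 0.05, all higher in TBI, against 2.16% of all genes tested in that direction. These 35 genes, like the 9, were listed with the pattern of TBI1 known, so this count is a description and no independent evidence. DESeq2 called 0 of the 35 and 46 genes (0.219%) of the series, and it gave no adjusted p for 11 of the 35. The median log2 fold change of the 35 genes was 1.51, with 33 higher and 2 lower in TBI. Without TBI1 the median was 0.087, with 20 higher and 15 lower, and 5 genes reached an unadjusted p under 0.05, against 4.2% of all genes tested without TBI1. Ebf1 and Syndig1l were higher and Ptpn5, Tmem158 and Bcl11b lower in TBI among these 5. In 7 of the 35 genes (20%), against 4.77% of all genes tested, the TBI libraries lay above the sham libraries without overlap. These 7 were Ebf1, Slc35d3, Scn4b, Syndig1l, Foxp2, Zfp503 and Six3os1. TBI1 was the highest library in 33 of the 35, against 19.7% of all genes. The 20% and the 4.77% are therefore not a like comparison. Scn4b had 68.8 CPM in TBI2 and 127 CPM in TBI3, against 33.8, 15.9 and 61.7 CPM in sham, and Foxp2 had 11.7 and 17.1 CPM against 3.51, 3.44 and 10.9 CPM. In both, Sham3 was the highest sham library, as it was for Six3.

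Relatives of the 9 genes from the same families did not share the pattern as a group. Of 38 relatives tested, TBI1 was at least 2 times the highest other library in 2, Pde7b and Rgs4, and the median ratio of TBI1 to the other libraries was 1.03. Their median log2 fold change was -0.066, and -0.16 without TBI1. Pde7b, a cyclic AMP phosphodiesterase, had 20.0, 8.30 and 19.2 CPM in sham and 166, 21.8 and 26.7 CPM in TBI. Drd5, the D1-like receptor that hippocampal neurons use, had 18.7, 23.7 and 13.5 CPM in sham and 4.78, 10.9 and 7.75 CPM in TBI. The groups did not overlap for Drd5, and TBI1 was the lowest library. Its log2 fold change was -1.26 (adjusted p 0.982, edgeR's quasi-likelihood test), and it was lower in TBI without TBI1 too. Drd3, a receptor of the ventral striatum, was left out by the filter and had 0, 0 and 0 counts in sham and 51, 5 and 0 in TBI. Adcy1, the calcium-stimulated cyclase abundant in hippocampal neurons, had 1681, 629 and 1514 CPM in sham and 578, 1452 and 1496 CPM in TBI, the reverse of Adcy5 in TBI1. Adora1, the abundant adenosine receptor of the hippocampus, was 0.908 times the median in TBI1. Pde2a (726 CPM in TBI1) was 2.10 times and Gng2, at 0.479 times, was below the median. Pde1a, with a log2 fold change of -1.20 (-1.12 without TBI1), was 1 of 4 relatives at an unadjusted p under 0.05 (2 higher and 2 lower), against 4.29% of all genes tested, and the only relative that DESeq2 called.

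The shared machinery of the pathway differed less. Of 28 G protein, kinase, phosphatase and kinase-regulator genes, 1 was at least 2 times the highest other library in TBI1, Ric8b, the chaperone of the Golf alpha subunit, with 108 CPM against 37.9 to 47.3 CPM, and Ppp1cb, a catalytic subunit of protein phosphatase 1, was at most 0.5 times the lowest. Gnb5, the beta subunit that binds Rgs9, had 243 CPM in TBI1 and 105 to 141 CPM elsewhere. The most abundant were Ppp3ca, Gnas and Prkar1a, encoding a calcineurin catalytic subunit, the alpha subunit of Gs and a regulatory subunit of protein kinase A. Gnas was 0.562 times the median in TBI1. Prkar1a was 0.931 times and Ppp3ca 1.60 times. The list had a median log2 fold change of 0.048, and -0.015 without TBI1. Of its 28 genes 1, Prkacb, had a p under 0.05 before adjustment (edgeR), against 4.29% of all genes tested, and 2 others, Akap5 and Cdk5r1, did so without TBI1, against 4.2%.

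Genes of dopamine synthesis and clearance, used by dopamine axons and other cells rather than by medium spiny neurons, had a median ratio of 0.682 in TBI1 over 10 tested genes. Th, which encodes tyrosine hydroxylase, had 39, 110 and 42 counts in sham and 603, 36 and 141 in TBI. Slc6a3, the dopamine transporter, had 5 to 44 counts in every library, with 21 in TBI1. Aldh1a1 and Maoa, which encode an aldehyde dehydrogenase and a monoamine oxidase, had log2 fold changes of 0.75 and 0.24, and of 1.11 and 0.34 without TBI1. The median of the list was 0.14, and 0.20 without TBI1.

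Most markers of the labelled tissue were lower in TBI1. Of 6 dentate gyrus genes, 4 were at most 0.5 times the lowest other library there, as were 3 of 8 genes of CA1 and CA3. C1ql2, a synaptic protein of granule cells, had 86.0, 64.4 and 56.7 CPM in sham and 2.45, 63.4 and 39.6 CPM in TBI. Prox1, the transcription factor that keeps granule cell identity, had 96.0, 72.2 and 70.0 CPM in sham and 19.6, 56.5 and 56.0 CPM in TBI. Fibcd1, a CA1 gene, was at 13.1 CPM in TBI1 and at 49.5 CPM or more elsewhere. Calb1, of the dentate list, was at 215 CPM in TBI1, above the median of the others, and at 493 CPM in TBI3. Wfs1 and Pou3f1, of the CA list, were at 276 and 77.2 CPM in TBI1, above the median of the others. Whether cells outside the hippocampus gave these levels was not tested. None of the dentate or CA genes was at 0 in TBI1. Of the 10 genes listed for basal forebrain and septum, 7 were tested, and in 4 of them (Chat, Slc18a3, Slc5a7 and Nkx2-1) TBI1 was at least 2 times the highest other library. Ngfr was at 1.23 times the highest other library, while Zic1 and Zic4 were at 0.486 and 0.292 times the median of the others. Chat, which makes acetylcholine, had 13, 0 and 48 counts in sham and 660, 16 and 13 in TBI, and Lhx8, a transcription factor of these neurons, had 276 counts in TBI1 and 0 in each other library. The list had a summed level of 115 CPM in TBI1, 27.6 to 110 CPM in sham and 61.9 and 301 CPM in TBI2 and TBI3, where Zic1 made up most of the sum. The neocortical list was at a mean log2 level of 0.43 in TBI1, its highest library. Its genes went both ways there, with Myl4 and Lamp5 at 3.85 and 3.15 times the median of the others and Fezf2 at 0.224 times. The microglial list was at 1.12 and the neuronal activity list at -0.013. The reactive astrocyte list was at 1.20 in TBI1, with its 8 genes from 2.11 to 34.1 times the median of the other libraries, and at 2.95 in Sham2, where the 9 genes were at -0.0087. Which part of the level of the 9 genes in TBI1 came with tissue composition and which with the injury cannot be told apart in a single library, and it was not tested.

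**Figure D4:**
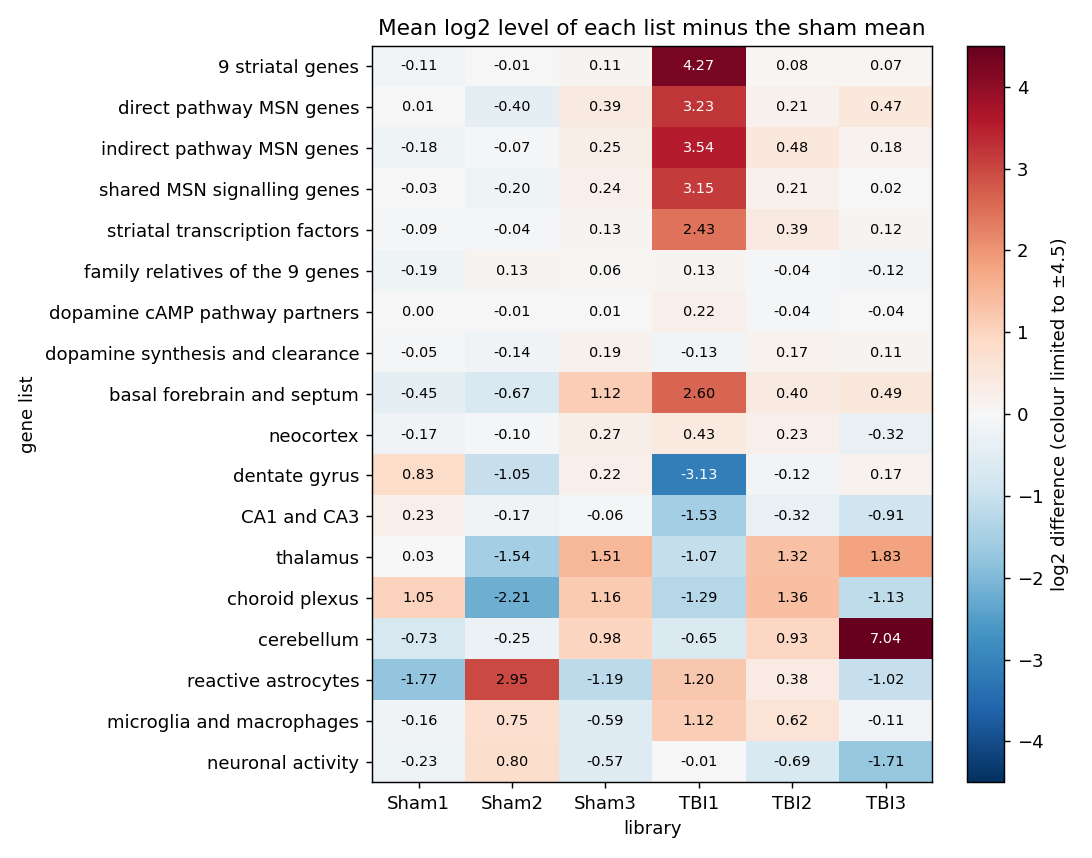
Mean log2 level of each gene list minus the mean of the 3 sham libraries, by library, with the value in each cell and colour limited to 4.5 in either direction. The 9 striatal genes were at 4.27 in TBI1, where the dentate gyrus list was at -3.13, while the cerebellar list was at 7.04 in TBI3 and the reactive astrocyte list at 2.95 in Sham2.

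Likeness to the 9 genes was measured as Pearson's r between a gene's log2 CPM and the mean standardized profile of the 9, over the 6 libraries and as a description. The 10 most alike genes were Gm867, Gsk3b, Lrrk2, Gm10138, Tac1, Me2, Selenoi, Gna15, Eogt and Kcnh4, with r between 0.989 and 0.996 and Spearman's rho between 0.14 and 0.83. TBI1 decides these values: without it, over 5 libraries, r for the same genes ran from -0.19 to 0.96. Size and shape differed, since Gsk3b was only 1.34 times the median of the other libraries in TBI1, while Kcnh4, a potassium channel, was 17.0 times. Lrrk2, a kinase abundant in striatal neurons, had 1165, 1295 and 1228 counts in sham and 4640, 1094 and 1113 in TBI.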

How the data were processed

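Hippocampal RNA from 3 sham and 3 TBI mice was sequenced, with 1 library per mouse. Reads were quality-checked (FastQC), mapped to GRCm38 (HISAT2) and quantified (StringTie) by the study. The authors deposited the resulting estimated counts per gene as unnormalized whole numbers. Tool versions, the annotation release and how coverage was turned into counts are not given in the sources used here. The value 4 occurs 5109 times and 3 only 2325 times, so a value is not taken as a number of reads and no counting error was computed. Of the gene identifiers, 52403 were matched to a symbol by their unversioned part in GENCODE vM21 and 147 were not.

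R 4.3.3 was used with edgeR 4.0.16 and DESeq2 1.42.0. After filterByExpr and TMM scaling, TBI was compared with sham by the quasi-likelihood test of edgeR, with p-values adjusted by Benjamini-Hochberg over all genes kept. The fit was tested on simulated data. Log2 CPM used a prior count of 2. Levels per kb used the union of annotated exons. Groups and replicate numbers came from the sample titles. The replicate numbers were not taken as pairs, since the deviations of same-numbered libraries correlated at -0.10, -0.065 and 0.15.

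The 9 genes and the other gene lists were chosen with earlier results of these data known. Genes named were the 9, those of the medium spiny neuron lists, up to 3 genes with the highest mean CPM from each other list, and the 10 most alike in profile. Those named outside that rule (Drd3, Drd5, Adora1, Gng2, Pde1a, Pde7b, Gnb5, Ric8b, Prkacb, Ppp1cb, Akap5, Cdk5r1, Th, Slc6a3, Chat, Lhx8, Tcf7l2, Fibcd1, Pou3f1, Fezf2, Myl4, Slc18a3, Nkx2-1, Ngfr, Rgs8 and Gng13) were picked after their values were seen. Single values of 2 listed genes are not reported here. Alternatives were DESeq2 in 2 forms, library totals, upper-quartile scaling, 2 other filters, the replicate block, no fold change threshold, and each library left out in turn.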

Additional observations from a re-analysis of the deposited data

How the results depend on the processing

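The median log2 fold change of the 9 genes kept its sign and stayed within the spread between libraries under DESeq2, other scalings and other filters, at 2.99 in the edgeR fit. It was -0.11 without TBI1, and leaving out each library in turn it ran from -0.11 to 3.53. With the replicate number as a block it was 0.85. No source used here says that a replicate number marks a shared batch, and the edgeR count of calls stayed at 0 under the block. For the single genes, the sign turned without TBI1 in 5 of 9, and the leave-one-out range was -0.91 to 3.69 for Drd1, -0.11 to 1.94 for Pde10a, -0.46 to 3.83 for Rgs9, -0.61 to 1.29 for Gng7 and -0.20 to 1.89 for Adcy5. The 8 other values that moved were Drd1 (0.30), Drd2 (1.72), Adora2a (2.04) and Rgs9 (0.85) under the block, and Drd2 (0.41), Adora2a (0.0035), Ppp1r1b (0.34) and Six3 (1.75) without TBI1. The remaining 104 of 117 such values stayed within the spread. That spread includes TBI1 and is wide for this reason, so staying within it does not show that a value was stable. Values counted as within it under the block were 1.49 for Ppp1r1b, 0.73 for Pde10a, 0.68 for Adcy5, 0.32 for Gng7 and 2.85 for Six3. Without the block these were 2.81, 1.47, 1.45, 0.86 and 3.12. For the other medium spiny neuron genes the median was 1.51, and 0.087 without TBI1, in a leave-one-out range up to 1.94. The number of genes called in the series was 0 with edgeR, 46 with DESeq2's defaults, 43 with DESeq2 on the genes kept, and between 0 and 1 with a library left out, 1 without TBI1. At an unadjusted p under 0.05 edgeR had 806 genes. The cause of the difference between the tools was not tested. The median r of the 10 most alike genes was 0.992, and 0.594 without TBI1. At n = 3 against 3, the smallest p of an exact permutation test is 0.1.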

Other observations

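Of the family relatives, Rgs8 and Gng13 were picked after their values were seen, and the relatives as a list were at a mean log2 level of -0.12 in TBI3. Rgs8, which regulates G proteins in Purkinje cells, had 120, 117 and 140 CPM in sham and 243, 133 and 630 CPM in TBI. Gng13, a G protein gamma subunit, had 33.1, 36.4 and 31.2 CPM in sham and 30.4, 33.8 and 98.4 CPM in TBI. Both were highest in TBI3, where the cerebellar list summed to 2260 CPM, against 33.9 to 72.8 CPM in the other libraries. Cbln3, a granule cell gene of the cerebellum, had 18992 counts in TBI3 and 10 to 64 elsewhere. The choroid plexus list was lowest in Sham2, at a mean log2 level of -2.21 relative to sham, with TBI1 at -1.29 and TBI3 at -1.13. Ttr, its most abundant gene, had 1054 counts in Sham2, 8217 in TBI1 and 7999 in TBI3, and 69575 to 76799 in the others.

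Of the 307 genes at least 2 times higher in TBI1 than in any other library, 270 were outside the 9 genes and the 35 other medium spiny neuron genes. Among genes in none of the lists, chosen after their values were seen, Sh3rf2 had 0, 0 and 0 counts in sham and 1600, 16 and 9 in TBI. Cd4 had 4, 12 and 28 counts in sham and 2120, 21 and 12 in TBI. Rxrg, a retinoid receptor, was at 4694 counts in TBI1 and 60 to 279 elsewhere, and Oprk1, the kappa opioid receptor, was at 1164 and 10 to 93. In the opposite direction, Ntf3, which encodes neurotrophin-3, was listed at 0 in TBI1 and at 118 to 302 counts elsewhere. Lhx9, a transcription factor, had 490, 418 and 752 counts in sham and 9, 407 and 494 in TBI. Cabp7, a calcium-binding protein, had 1255 counts in TBI1 and 8458 to 17524 elsewhere.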
